A study of Mus musculus with 8 samples.

Results

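miR-21a is one of the most abundant microRNAs (miRNAs) of mouse bone cells, and it is measured here as both products of its hairpin: miR-21a-5p, the guide arm, and miR-21a-3p, the passenger arm. The 2 arms, listed as mmu-miR-21a-5p and mmu-miR-21a-3p, were taken by name from both deposited tables, as 2 of 1281 mature miRNAs and 2 of 1418 entries, an entry being a mature arm paired with 1 precursor. They were selected on the RPM of miR-21a-5p in these libraries, above all its large part of the counts in undifferentiated cells, so the levels of both arms are given as a description with no test. Tests were made on the other miRNAs, whose RPM values (reads scaled to a total of 1000000 per library) depend on how much of the total miR-21a takes up.

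Small RNA was sequenced from 3 libraries of calvaria (the parietal and frontal bones of the skull vault) and from 5 libraries of MC3T3 E1 sc4 cells, a cloned pre-osteoblast line from mouse calvaria. The calvaria came from female Prrx1-Cre+ mice of 2 to 3 days of age, labelled C57BL/6, and were treated briefly with collagenase and trypsin. Prrx1-Cre makes the recombinase in early limb and skull mesenchyme; the labels name no floxed allele, and do not say whether each library is 1 animal. The MC3T3 libraries are titled day 0 (undifferentiated) and days 6, 10, 17 and 24 (differentiated). Differentiation was in culture with ascorbic acid and β-glycerol phosphate, and the titles do not say on which day these were added. Each library is a pool of RNA from 3 cultures, so no day has a replicate. All 5 are from 1 clone. The MC3T3 column names give a day that is 3 lower than the title throughout, and columns were matched to titles by that shift. The 4 later columns also carry the mark veh, which the labels do not explain.

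A miRNA guides Argonaute proteins to messenger RNAs mainly through its seed, bases 2 to 8, and lowers their translation and stability. The guide arm is kept in the complex and the passenger arm is mostly degraded. miR-21 is transcribed under AP-1 and STAT3 in growing, stressed and inflamed cells, its processing is raised by SMAD proteins after TGF-β or BMP signals, and its known targets include Pdcd4, Spry1 and Spry2, which restrain growth and kinase signalling. In bone it has been studied both in osteoblasts and in osteoclast formation.

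The mature sequences below are shown because the measured reads of miR-21a-5p had to be told apart from 2 close relatives. They are from RefSeq on GRCm38.p6, which corresponds to the mm10 build of the submitters' processing notes, and capitals mark the seed. Of the mature names in the files, 1029 of 1281 had a sequence there.
miR-21a-5p: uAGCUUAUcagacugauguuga
miR-21c: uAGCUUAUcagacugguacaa
miR-21b: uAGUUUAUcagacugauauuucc
miR-21a-3p: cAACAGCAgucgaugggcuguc

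miR-21c was the only other miRNA of the RefSeq table with the seed of miR-21a-5p, and none shared the seed of miR-21a-3p. Names in the files without a sequence there could not be searched, so further seed relatives may be missing. Counted from 1 at the 5′ end with the miR-21a-5p base first, miR-21b differs by C4U, which lies in the seed, and by G18A, G21U and A22C. miR-21c differs by A16G, G18A, U19C, U20A and G21A. The longest run shared with miR-21a-5p is 13 bases for miR-21b and 15 bases for miR-21c. Mir21a lies on chromosome 11 from 86584067 to 86584158, on the minus strand. In GENCODE vM21 this falls inside the last exon of Vmp1 transcript Vmp1-201 (86583865 to 86585451), in its 3′ untranslated part. Mir21c is on chromosome 8, with its mature arm at 128278188 to 128278208 on the minus strand, and Mir21b is on chromosome 3, with its mature arm at 29636768 to 29636790 on the plus strand.

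The guide arm was high in every library. miR-21a-5p had 71351, 54076 and 97400 RPM in calvaria 1, 2 and 3. In MC3T3 cells it had 455477 RPM at day 0, 201369 at day 6, 188583 at day 10, 112325 at day 17 and 129985 at day 24. All 5 MC3T3 libraries were above all 3 calvaria libraries, and day 0 was more than 2-fold above every other library. It took 7.43% ± 2.18 of the counts in calvaria (SD, n = 3) and 21.75% ± 13.82 in MC3T3 cells (SD over the 5 days). The mean of calvaria was 0.341 times that of MC3T3 cells, and 0.470 times without the day 0 library. With TMM scaling (trimmed mean of M-values, which sets libraries against each other by their typical miRNA instead of their total) the first ratio was 0.266. With DESeq2 size factors, another scaling, the first ratio was 0.340, almost as in RPM. In bulk tissue, fewer cells that hold a miRNA and less of it per cell cannot be told apart.

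**Figure D1:**
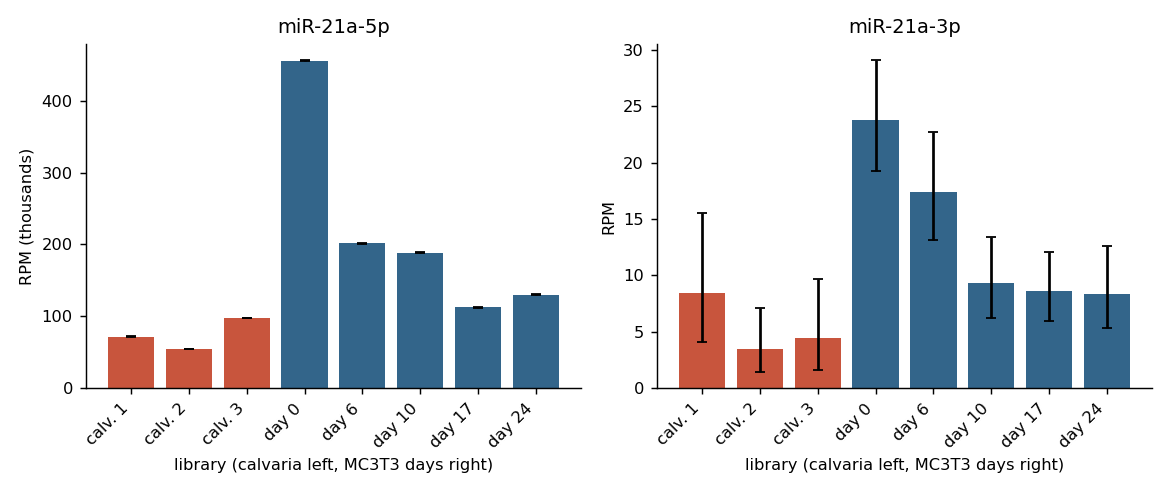
RPM of miR-21a-5p (left) and miR-21a-3p (right) in each library, calvaria in red and MC3T3 days in blue, with exact Poisson intervals of the count as error bars. miR-21a-5p reaches 455477 RPM at day 0 and miR-21a-3p 23.8 RPM, and the bars of miR-21a-3p in calvaria rest on 6 to 10 counts.

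Over the days, the largest step of miR-21a-5p was the first. Its level at day 6 was 0.442 times that at day 0 (95% counting interval 0.441 to 0.443) in RPM, 0.301 times with miR-21a taken out of the totals and 0.262 times with TMM. The lowest level was at day 17, 0.596 times that at day 10, and day 24 was 1.16 times day 17. Between day 6 and day 10 the direction depended on the scale, with 0.937 times in RPM and 1.11 times with TMM. Day 24 was 0.285 times day 0 in RPM and 0.212 times with TMM. The order of the days in RPM was day 0, then days 6, 10, 24 and 17, but with 1 library per day the spread between cultures is unknown, and neighbours in that order could not be separated by a test. Intervals of single libraries cover counting error only. Amplified copies of 1 molecule were not told apart, so the intervals may be too narrow even for that.

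Within calvaria, miR-21a-5p differed 1.80-fold between calvaria 3, the highest, and calvaria 2, the lowest. It ranked 3rd, 6th and 1st by counts in calvaria 1, 2 and 3. Other miRNAs set calvaria 3 apart too. The endothelial miR-126-3p and miR-126-5p summed to 9028, 10749 and 20323 RPM in calvaria 1, 2 and 3, against 6.2 to 19.0 RPM in MC3T3 libraries. The 7 blood and leukocyte miRNAs summed to 307.7, 362.1 and 454.1 RPM in calvaria 1, 2 and 3, against 38.9 to 110.6 RPM in MC3T3 libraries, and none of the 7 was at 0 in all libraries of either material. The 3 cartilage miRNAs went the other way, with 100101, 100834 and 55841 RPM in calvaria 1, 2 and 3, against 16973 to 25126 RPM in MC3T3 libraries. The part of these cell types in the miR-21a-5p values was not tested. The 4 mesenchymal miRNAs (miR-143-3p, miR-145a-5p, miR-199a-3p and miR-214-3p) were high in both materials, with sums of 110434 to 118409 RPM in calvaria and 111442 to 165855 RPM in MC3T3 cells. The 3 muscle miRNAs, among them miR-206-3p, summed to 361.8, 276.0 and 634.8 RPM in calvaria 1, 2 and 3, the same order of libraries as miR-21a-5p. In MC3T3 cells they summed to 573.4 RPM at day 0 and to 196.8 to 213.1 RPM at days 6 to 24, so the sum was highest at day 0. Most of the day 0 sum was miR-206-3p, with 556.3 RPM. miR-1a-3p and miR-133a-3p went the other way, with log2 ratios of day 6 over day 0 of 1.98 and 2.37 in RPM. The part of muscle RNA in the miR-21a-5p values was not tested.

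The passenger arm was close to the limit of counting. miR-21a-3p had 10, 7 and 6 counts in calvaria 1, 2 and 3, or 8.45, 3.46 and 4.47 RPM. In MC3T3 cells it had 96, 55, 29, 34 and 23 counts at days 0, 6, 10, 17 and 24, or 23.8, 17.4, 9.34, 8.63 and 8.39 RPM. Day 0 was again the highest library, with an interval of 19.3 to 29.1 RPM that overlapped the 13.1 to 22.7 RPM of day 6. Calvaria 1 lay within the range of days 10 to 24 in RPM. On the other scales it was just below all MC3T3 libraries, with 7.89 against a lowest MC3T3 value of 8.59 with TMM and 9.10 against 9.64 without miR-21a in the totals. The mean of miR-21a-3p was 5.46 ± 2.64 RPM in calvaria (SD, n = 3) and 13.5 ± 6.87 RPM in MC3T3 cells (SD over the 5 days). By day 24 the passenger arm stood at 0.352 times its day 0 level (0.213 to 0.560) in RPM, and the guide arm at 0.285 times. With TMM these were 0.261 and 0.212.

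Set against the guide arm, the passenger arm was rare in every library. Per 1000000 counts of both arms, miR-21a-3p had 118.5, 63.98 and 45.86 counts in calvaria 1, 2 and 3, and 52.3, 86.6, 49.5, 76.8 and 64.5 counts at days 0, 6, 10, 17 and 24. Counting error was wide: the exact binomial interval ran from 56.8 to 217.8 in calvaria 1 and from 65.2 to 112.7 at day 6. The interval of day 6 did not overlap that of day 0, 42.3 to 63.8, but with no replicate of either day this compares only those 2 libraries. With the counts of all 8 libraries added up, which gives the deeper libraries and day 0 the most weight, the share was 62.2 per 1000000. Among 102 hairpins with both arms listed and at least 10000 counts, pooled in the same way over both materials, it was the 8th lowest share of a minor arm, and the median was 9476 per 1000000 (quartiles 1453 and 61701).

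The relatives miR-21b and miR-21c had almost no counts. miR-21b had 2.83, 1.67 and 2.17 counts in calvaria 1, 2 and 3, and 30.5, 12.3, 5.17, 16.8 and 9.33 at days 0, 6, 10, 17 and 24. miR-21c had 3.33, 2.17 and 1.67 counts in calvaria 1, 2 and 3, and 26.0, 11.3, 8.67, 14.3 and 6.33 at days 0, 6, 10, 17 and 24. Both were highest at day 0, where miR-21a-5p was highest. The counts of miR-21a-5p were fractional in all 8 libraries, but the sum of the 3 miRNAs was whole within 0.03 counts in 8 of 8. The day 0 sum, for example, was 1836522.00. Together miR-21b and miR-21c had 29.35 to 72.98 counts per 1000000 miR-21a-5p counts in calvaria and 23.64 to 70.4 in MC3T3 cells. Because reads were divided among the 3, the values of miR-21b and miR-21c are uncertain. All 8 values of miR-21a-3p were whole. miR-590-5p was listed at 0 in all 8 libraries.

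How the share of miR-21a changes the RPM of everything else follows from the totals. At day 0, 1836562 of 4031962 counts were miR-21a, which left 2195400 counts for all other miRNAs. At days 6, 10, 17 and 24 the others held 2520061, 2519110, 3497738 and 2385877 counts, and in calvaria 1, 2 and 3 they held 1098592, 1913631 and 1212473. Taking miR-21a out of the total multiplies the RPM of every other miRNA by 1.08, 1.06 and 1.11 in calvaria 1, 2 and 3. The same factor was 1.84 at day 0, 1.25 at day 6, 1.23 at day 10, 1.13 at day 17 and 1.15 at day 24. The others with at least 10 counts numbered 389, 440 and 398 in calvaria 1, 2 and 3, and 349 to 383 in the MC3T3 libraries, with 367 at day 0.

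**Figure D2:**
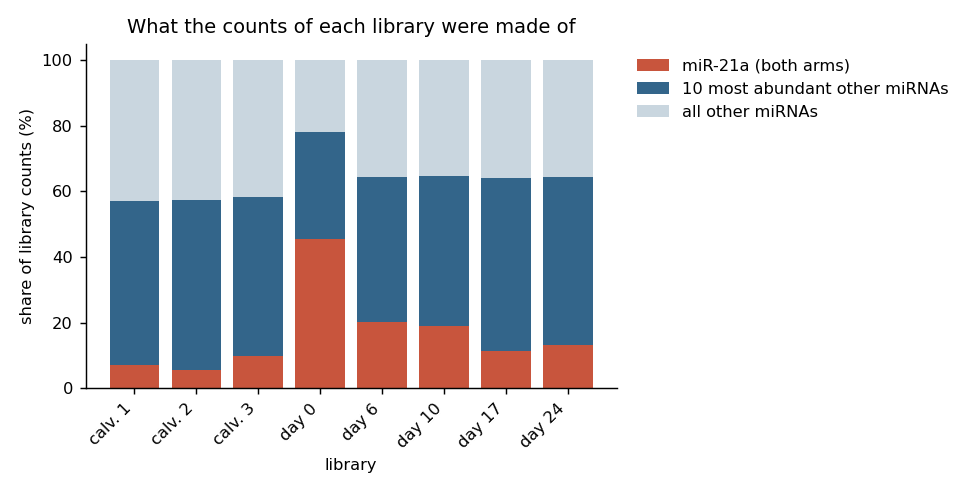
Share of the counts of each library taken by miR-21a, by the 10 most abundant other miRNAs and by all the rest. miR-21a takes over 45% at day 0 and 11.2% to 20.1% on later days.

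With miR-21a set aside, the rest of the day 0 library was spread over miRNAs much as on later days. The 10 most abundant other miRNAs held 59.9% of the remaining counts at day 0, 55.3% at day 6, 56.7% at day 10, 59.7% at day 17 and 59.1% at day 24, and 53.7%, 55.0% and 53.9% in calvaria 1, 2 and 3. The effective number of miRNAs (the exponential of Shannon's entropy, which equals the count of miRNAs if all were equally abundant) was 13.9 at day 0 with miR-21a and 35.3 without it. At days 6 to 24 it was 32.4 to 35.4 with miR-21a and 37.2 to 42.5 without it, so day 0 came nearer to the later days without miR-21a and remained the lowest. The levels of single miRNAs still set day 0 apart: over the 258 other miRNAs with 10 counts in every library, the SD of log2 ratios was 0.909 between days 6 and 0, 0.418 between days 10 and 6, 0.474 between days 17 and 10 and 0.346 between days 24 and 17. These SDs do not depend on the scaling.

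Among the steps between consecutive days, the one to day 6 had the largest change in the miR-21a share. Of 402 other miRNAs with at least 10 counts at day 6 or day 0, 159 were more than 2-fold higher (39.6%) and 18 more than 2-fold lower (4.48%) at day 6 in RPM. With miR-21a out of the totals, 71 were higher (17.7%) and 37 lower (9.2%). With TMM, 60 were higher (14.9%) and 53 lower (13.2%). The median log2 ratio of the 402 was 0.78 in RPM, 0.23 without miR-21a and 0.03 with TMM. Of this, 0.55 is the change in the share of miR-21a alone, a factor of 1.47 that is the same for every other miRNA. Since all ratios move down by this factor, the 92 of 402 miRNAs (22.9%) that were higher at day 6 in RPM by less than it became lower when miR-21a was left out, and by construction none turned the other way. These are single libraries, and no test was possible.

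**Figure D3:**
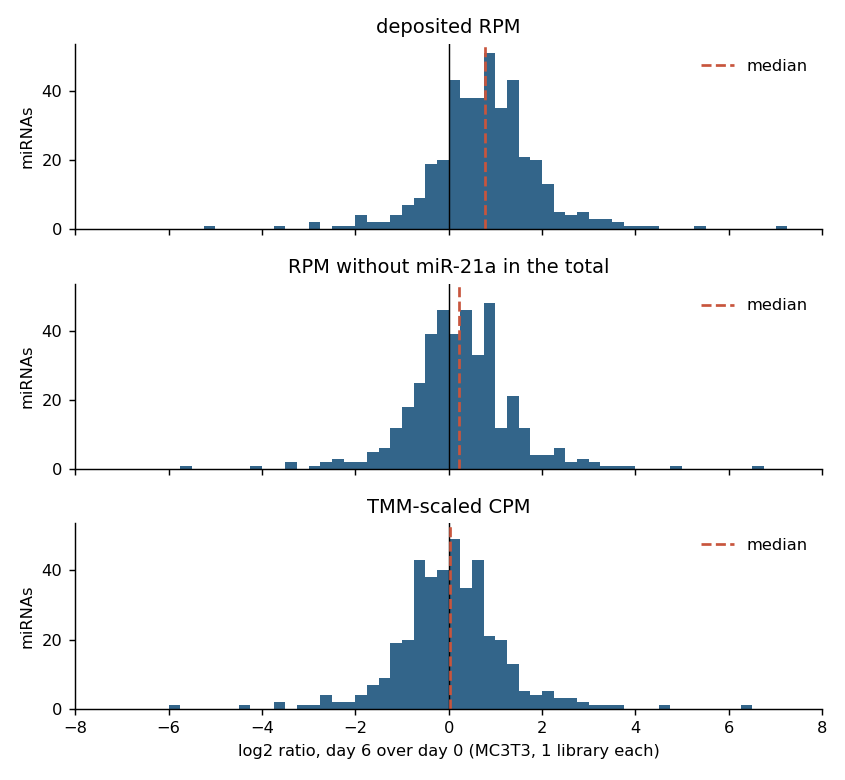
Log2 ratio of day 6 over day 0 for the 402 other miRNAs with at least 10 counts in either library, in RPM, in RPM without miR-21a in the total and in TMM-scaled counts; the vertical axis counts miRNAs. The dashed median lies at 0.78, 0.23 and 0.03, and the spread is the same on the 3 scales (SD 1.16 log2 units).

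For the whole course, leaving out miR-21a or using TMM again gave fewer higher and more lower miRNAs than RPM, and here the balance turned. Day 24 against day 0 covered 388 other miRNAs, of which 105 (27.1%) were over 2-fold up and 48 (12.4%) over 2-fold down in RPM. Without miR-21a, 43 were higher (11.1%) and 89 lower (22.9%). With TMM, 61 were higher (15.7%) and 69 lower (17.8%). The factor was 1.60, and the 104 miRNAs that were higher at day 24 in RPM by less than this became lower when miR-21a was left out. Between later days the factor that miR-21a put on the others was smaller, at 1.02 for day 10 over day 6, 1.09 for day 17 over day 10 and 0.980 for day 24 over day 17.

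Among the 10 most abundant other miRNAs of MC3T3 cells, all 10 were higher at day 6 than at day 0 in RPM, 5 were higher without miR-21a, and 4 were higher with TMM. miR-143-3p, a smooth muscle and mesenchymal miRNA, had 98901 RPM at day 6, against 87473 RPM at day 0. Without miR-21a in the total it had 123841 at day 6, against 160649 at day 0, and its ratio was 1.13 in RPM, 0.771 without miR-21a and 0.671 with TMM. let-7i-5p and let-7f-5p belong to the let-7 family, which is raised as cells differentiate. The ratio of let-7i-5p was 1.34 in RPM, 0.914 without miR-21a and 0.796 with TMM. The ratio of let-7f-5p was 1.40 in RPM, 0.957 without miR-21a and 0.833 with TMM. miR-100-5p, which targets Mtor, had 1.27 in RPM, 0.866 without miR-21a and 0.754 with TMM. These 4 are the most abundant miRNAs whose direction turned. The ratio of miR-199a-5p, at 1.33 in RPM, was 0.909 without miR-21a.

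Of the others, miR-99a-5p was higher at day 6 on all 3 scales, with ratios of 3.22 in RPM, 2.19 without miR-21a and 1.91 with TMM. miR-27b-3p also kept its direction, with 2.23, 1.52 and 1.32 on the same scales. miR-199a-3p had 1.73, 1.18 and 1.03, and let-7c-5p had 1.71, 1.17 and 1.02. miR-26a-5p was higher in RPM (1.62) and without miR-21a (1.11), and lower with TMM (0.963).

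**Figure D4:**
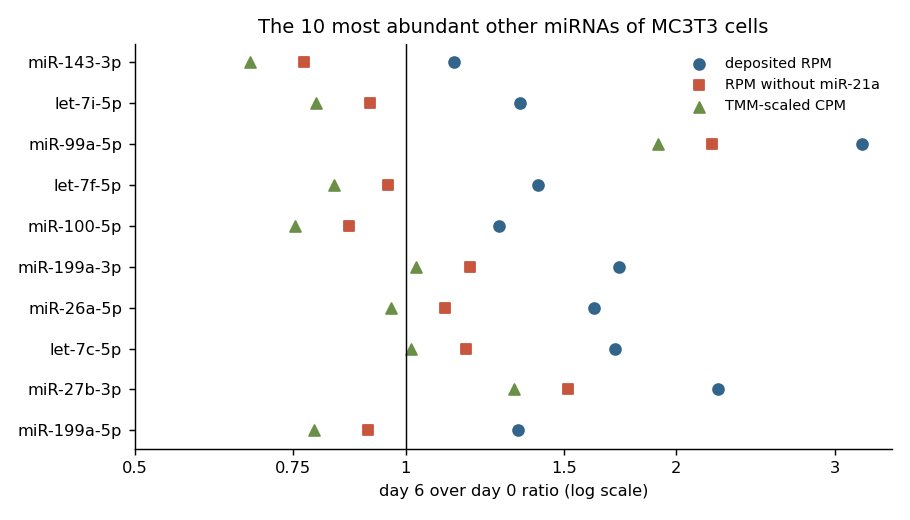
Ratio of day 6 over day 0 on a log axis for the 10 most abundant other miRNAs of MC3T3 cells, on 3 scales. All points in RPM lie right of 1, while miR-143-3p, let-7i-5p, let-7f-5p, miR-100-5p and miR-199a-5p lie left of 1 once miR-21a is out of the total.

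Whether the scale moves a test was asked with edgeR's quasi-likelihood fit over all entries, with Benjamini-Hochberg adjustment and a threshold of 0.05. In the linear trend over the 5 MC3T3 days, 6 of 467 other entries rose (1.28%) and 8 fell (1.71%) with TMM. With library totals, the scale of RPM, 6 rose (1.28%) and 4 fell (0.857%), of which 4 and 3 were shared with TMM. With totals that leave out miR-21a, 1 rose (0.214%) and 10 fell (2.14%), of which 1 and 8 were shared with TMM. The median log2 change over 24 days of all other entries was -0.12 with TMM, 0.11 with library totals and -0.47 with totals without miR-21a. When TMM factors were computed without miR-21a the same 6 and 8 entries were called. Computed over all 8 libraries and all entries, the TMM factor of day 0 was 0.695 with miR-21a in the table and 1.03 without it. The trend fit used its own factors, from the tested entries of the 5 MC3T3 libraries. Leaving out the day 0 library gave 35 rising and 40 falling entries. Omitting day 6 gave 0 rising and 3 falling in the edgeR fit (41 and 54 at an unadjusted p under 0.05), omitting day 17 gave 3 and 2, and omitting day 24 gave 11 and 14.

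miR-99a-5p, for example, rose over 24 days by a log2 change of 2.18 ± 0.44 (SE; adjusted p = 0.0320, edgeR quasi-likelihood) with TMM and 2.34 ± 0.55 (0.0488) with library totals, and missed the threshold with totals without miR-21a (1.80 ± 0.41, 0.0522). Over 12 alternatives its adjusted p ran from 0.000737 to 0.0896, and it also missed the threshold without day 6 (0.0896), without day 17 (0.0576) and at a minimum of 100 counts (0.0508). For comparison, with no test, the fitted log2 change of miR-21a-5p was -2.11 with TMM and -1.78 with library totals. That of miR-21a-3p was -1.94 and -1.60.

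In calvaria against MC3T3 cells, 180 of 549 other entries were higher (32.8%) and 184 lower (33.5%) in calvaria with TMM. With library totals 179 were higher (32.6%) and 135 lower (24.6%), and with totals without miR-21a 168 were higher (30.6%) and 193 lower (35.2%). All 135 lower calls with library totals were among the 193. DESeq2 size factors gave 216 higher and 127 lower, so that 62.97% of calls were higher, against 49.45% with TMM. With TMM, leaving out calvaria 1 gave 102 higher and 113 lower, leaving out calvaria 2 gave 97 and 100, and leaving out calvaria 3 gave 101 and 95. No entry was called in opposite directions on any pair of these scales. The median log2 difference of all other entries was -0.13 with TMM, 0.02 with library totals, -0.24 with totals without miR-21a and 0.19 with DESeq2 size factors. An entry that is nearly absent in either material passed the count filter by its level in the other.

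**Figure D5:**
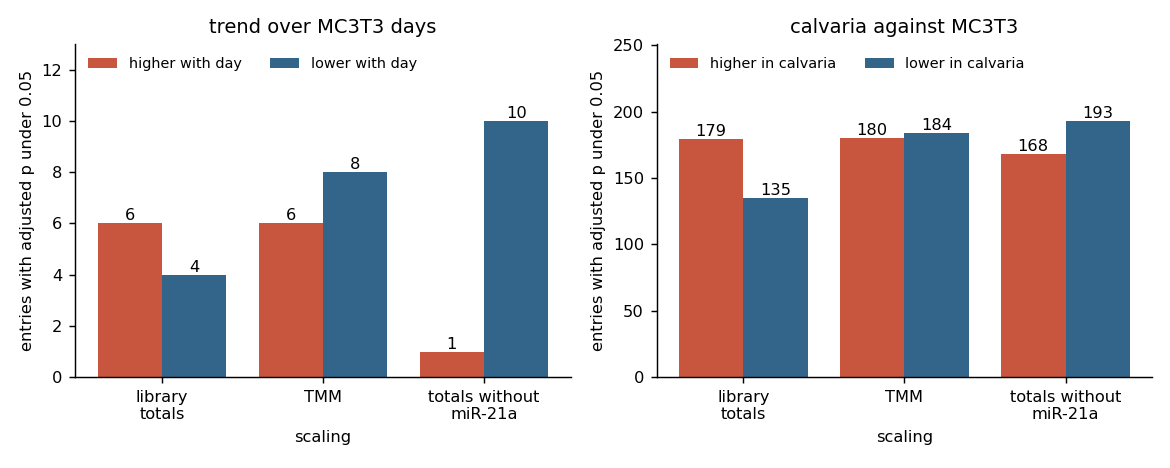
Number of other entries past the adjusted p threshold of 0.05 with library totals, TMM and totals without miR-21a, for the trend over MC3T3 days (left) and calvaria against MC3T3 (right). Lower calls number 4, 8 and 10 with day and 135, 184 and 193 in calvaria.

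In all, 6 other miRNAs are reported, like miR-21, to answer to AP-1, STAT3 or NF-κB or to be processed under SMAD control: miR-221-3p, miR-222-3p, miR-181b-5p, miR-146a-5p, miR-155-5p and miR-199a-5p. They gave 8 entries, since miR-181b-5p and miR-199a-5p have 2 precursors each. With day and TMM, 1 of 8 entries rose and 1 fell, against 1.28% and 1.71% of all other entries. The riser was miR-146a-5p, a brake on NF-κB signalling, with 1.98, 10.9, 13.7, 28.9 and 31.0 RPM at days 0, 6, 10, 17 and 24 (log2 3.27 ± 0.56, adjusted p = 0.0276, edgeR quasi-likelihood). It missed the threshold with totals without miR-21a (2.87 ± 0.63, adjusted p = 0.0522) and without day 6 (0.0759), and its adjusted p ran from 0.000124 to 0.0759 over 11 alternatives. The faller was miR-155-5p, an inflammatory miRNA, with 34.7, 2.85, 3.22, 2.28 and 1.46 RPM (log2 -5.73 ± 1.16, adjusted p = 0.0323; 0.0106 to 0.0550 over 9 alternatives, with the threshold missed without day 17). It did not pass the count filter when day 0 or day 10 was left out, or at a minimum of 100 counts, so its call was not tested in those settings. The day 0 library of miR-155-5p stood far above the others, as that of miR-21a-5p did. Its fitted fall thus rests mainly on day 0, against 1.46 to 3.22 RPM on later days. The median log2 change of the 8 entries was 0.16, against -0.12 for all other entries.

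In calvaria against MC3T3 cells with TMM, 1 of the 8 entries was higher and 2 were lower, against 32.8% and 33.5% of all other entries, and the median was 0.07, against -0.13. miR-146a-5p averaged 172.2 ± 38.9 RPM in calvaria and 17.3 ± 12.4 RPM in MC3T3 cells (log2 3.24 ± 0.59, adjusted p = 0.000889, edgeR quasi-likelihood). The cell cycle miRNAs miR-221-3p and miR-222-3p, which share a primary transcript, were lower in calvaria. miR-221-3p averaged 214.5 ± 12.4 RPM in calvaria and 836.8 ± 178.2 RPM in MC3T3 cells (log2 -2.09 ± 0.18, adjusted p = 4.64e-06). miR-222-3p averaged 62.4 ± 15.0 RPM in calvaria and 269.1 ± 64.9 RPM in MC3T3 cells (log2 -2.25 ± 0.29, adjusted p = 6.69e-05). Errors are SDs over 3 calvaria and 5 MC3T3 libraries for RPM and SEs for log2. The 5 MC3T3 libraries are different days of 1 clone and not replicates, so the p-values do not measure spread between cultures of a day or between cell lines. These 3 calls held under all 15 alternatives run, with adjusted p-values of at most 0.00532. The 2 entries of miR-181b-5p had 0.99 and 0.97 (adjusted p = 0.0598 and 0.0533) with TMM and passed with library totals (1.15 and 1.14; 0.0268 and 0.0232) and with totals without miR-21a (0.93 and 0.91; 0.0423 and 0.0375).

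The profiles most like that of miR-21a-5p over the 8 libraries were found by the root mean square difference of log2 (RPM + 1), each centred on its own mean, among 177 other miRNAs with a mean of at least 100 RPM. The nearest was miR-30a-5p, at 0.378 log2 units, where the median of the 177 was 1.21. It had 9095, 8786 and 9130 RPM in calvaria 1, 2 and 3, and 29507, 20310, 17582, 15052 and 14411 RPM at days 0, 6, 10, 17 and 24. The next were miR-30c-2-3p (0.437), the muscle miRNA miR-206-3p (0.475), miR-30a-3p (0.534) and miR-22-5p (0.590). miR-206-3p had 87.07, 44.98 and 203.2 RPM in calvaria 1, 2 and 3, the same order of libraries as miR-21a-5p, and 556.3 RPM at day 0 against 104.3 to 144.3 RPM on later days. For miR-21a-3p the nearest were miR-30a-5p (0.334), miR-30c-2-3p (0.362), miR-296-3p (0.421), miR-27a-5p (0.426) and let-7a-1-3p (0.429), where the median was 1.07. All of these profiles share the same 8 libraries and totals, and they were chosen for likeness, so no test was made.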

How the data were processed

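The authors' deposited raw table holds estimated counts (expected counts) for each pair of mature arm and precursor. The authors' deposited normalized table holds RPM, each value being the raw value divided by its column total and scaled to 1000000, within 0.0127 RPM. cutadapt 0.9.5, Bowtie 0.12.7 and the mm10 build are named in the submitters' processing notes, with no role or order; no source used here gives the quantifier. Column totals were 1183011 to 4031962 counts. Fractional values show that some reads were divided between entries. RPM was summed over precursors per mature miRNA.

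Tests used counts rounded to whole numbers in edgeR 4.0.16 (R 4.3.3) with TMM, over entries with 10 counts in at least 2 MC3T3 libraries (linear trend over days, log2 change over 24 days) or at least 3 of 8 libraries (calvaria against MC3T3). Totals were those of the tested entries. p-values measure the spread between these libraries, which may be technical. Trend residuals hold noise and curvature alike. Alternatives included DESeq2 1.42.0. The fits were tested on simulated data, where 93.6% (day) and 100% (calvaria) of changes of 2 log2 units were recovered. The simulation gave all entries the same spread and did not copy the measured change in the miR-21a share. It therefore cannot judge the scalings. In ratios, 0 counts were set to 3 counts. Single-library intervals are 95% exact.

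The members and lists were chosen with earlier results of these data known. Named were both arms, seed relatives, the reported partners, the 10 most abundant other MC3T3 miRNAs, the 4 most abundant that changed direction and the 5 nearest profiles of each arm.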

Additional observations from a re-analysis of the deposited data

Results flagged for a closer look

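Among the 10 most abundant other MC3T3 miRNAs and the 6 reported partners, 15 miRNAs in all, 3 had 1 MC3T3 library farther from the other 4 than Dixon's 95% critical value allows on the RPM scale. Both arms of miR-21a and the nearest profiles were chosen on these levels and were not checked. Chance flags about 1 in 20 groups of replicates, but the days are a time course and not replicates, so the gap also holds any change over days. In RPM, day 0 was the high library for miR-155-5p (34.7 RPM) and the low one for let-7f-5p (35037 RPM) and miR-27b-3p (11025 RPM). Without miR-21a in the total, let-7f-5p had 64347 RPM at day 0, above the 52797 to 61594 RPM of days 6 to 24, while miR-27b-3p had 20248 RPM and stayed below their 30721 to 34413 RPM. let-7f-5p is also among the 4 miRNAs named because their direction turned.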

How the results depend on the processing

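For miR-21a-5p, day 6 over day 0 was 0.442 in RPM, 0.301 without miR-21a in the totals, 0.262 with TMM and 0.273 with DESeq2 size factors; day 24 over day 6 was 0.646, 0.593, 0.806 and 0.816 in the same order. For miR-21a-3p, day 6 over day 0 was 0.732, 0.499, 0.435 and 0.452. Calvaria over MC3T3 lay at 0.288 to 0.470 for miR-21a-5p and 0.293 to 0.499 for miR-21a-3p when single libraries were left out. Entries rising with day numbered 6 with TMM, 1 with totals without miR-21a, 20 with the DESeq2 Wald test, 14 with no filter and 2 at a minimum of 100 counts. Entries falling with day numbered 8, and 4 with library totals, 14 with the Wald test, 19 with no filter and 2 at 100 counts. Leaving out single days gave 0 to 35 rising and 2 to 40 falling: 35 and 40 without day 0, 0 and 3 without day 6 (41 and 54 at an unadjusted p under 0.05), 3 and 2 without day 17, and 11 and 14 without day 24. In calvaria, 180 were higher and 184 lower; at 100 counts 85 and 86, the Wald test 222 and 108, and without single libraries 97 to 202 higher and 95 to 185 lower, the low ends without a calvaria library. Day 6 against day 0 gave 159 higher and 18 lower by over 2-fold, and 61 and 46 with DESeq2 size factors, 71 and 37 without miR-21a, 60 and 53 with TMM, and 93 and 6 at 100 counts. Day 24 against day 0 gave 105 and 48, then 43 and 89 without miR-21a, 61 and 69 with TMM, 69 and 64 with DESeq2 size factors, and 65 and 19 at 100 counts. Scalings differ by 1 factor per library. The 100-count setting and the fits without a calvaria library test fewer miRNAs or entries. No paired analysis was possible because the labels give no replicate numbers that calvaria and MC3T3 libraries share, and each day has 1 library. The 6 to 10 counts of miR-21a-3p limit its values in calvaria.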
